A study of Mus musculus with 3 samples.

Results

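Choroid plexus epithelium genes were followed in brain vessels of mice aged 3 months, by RNA-seq. The 10 genes, Ttr, Kl, Folr1, Clic6, Kcne2, Aqp1, Otx2, Slc4a5, Enpp2 and Kcnj13, were chosen by name as markers of this epithelium, out of 29787 genes in the tables, and all 10 passed the minimum level of 1 that left 16604 genes. There were 3 libraries, 1 per group. The first came from mice in which floxed connexin 43 (Cx43, gene Gja1) was deleted by Cre recombinase under the human GFAP promoter, labelled hGFAP-Cre/Cx43fl/fl and Cx43 -/-, on a C57BL6-BALB/c background. The human GFAP promoter is active in astrocytes and also in neural progenitors. Wild-type (WT) mice of the C57BL6-BALB/c background made up a second group, which carried no deletion by their label, and WT C57BL6 mice the third. The sources used here do not say how many mice went into a library. With 1 library per group no test of a condition was possible, and every difference below is one between libraries.

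The choroid plexus is a folded tissue in the brain ventricles, in which a single layer of epithelial cells on fenestrated capillaries secretes the cerebrospinal fluid. Its epithelium moves sodium, potassium, chloride, bicarbonate and water, imports folate and other nutrients, and releases carrier proteins such as transthyretin. It forms a barrier of its own, between blood and cerebrospinal fluid, beside that of the brain endothelium.

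Read numbers are those of the most abundant transcript of a gene. Folds come from these reads and carry 95% exact binomial intervals that cover error from counting alone. Any 3 values for a gene stand for the Cx43-deleted library, the WT C57BL6-BALB/c library and the WT C57BL6 library, in that order. Levels (CPM) are counts summed over the transcripts of a gene per 1000000 reads after scaling, and log2 ratios are ratios of these levels. Values are compared between genes only as reads per kilobase per 1000000 reads (RPKM). The library totals were 54975610, 21170766 and 24830975 reads, so the WT C57BL6-BALB/c library gives the widest intervals. Gja1, the deleted gene, had 2574, 4276 and 5138 reads and a level of 48.0, 202 and 202, which is lower than in WT C57BL6-BALB/c by 4.202-fold (4.001 to 4.41) and lower than in WT C57BL6 by 4.21-fold (4.02 to 4.42). Markers of the labelled tissue were present in all libraries: Cldn5, the main claudin of brain endothelium, was at a level of 466, 529 and 1164, and Pecam1, an endothelial adhesion molecule, at 1145, 1378 and 2264.

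All 10 choroid plexus genes stood in 1 order, highest in WT C57BL6, intermediate in the Cx43-deleted library and lowest in WT C57BL6-BALB/c. Of all genes tested, 17.3% had that order. The reads of the 10 genes together were 0.863% of the WT C57BL6 library, 0.430% of the Cx43-deleted library and 0.336% of the WT C57BL6-BALB/c library. In these bulk samples, fewer choroid plexus cells and less RNA per cell cannot be told apart. The 3 comparisons share libraries and so do not support each other.

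**Figure D1:**
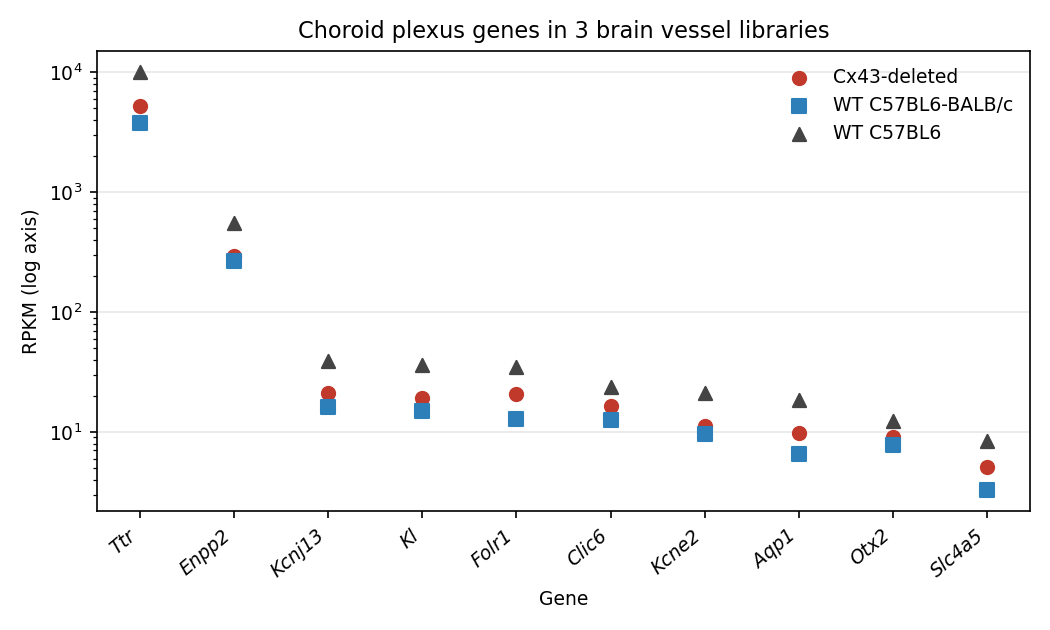
Reads per kilobase per 1000000 reads (RPKM) of the most abundant transcript (log axis) of the 10 genes in the 3 libraries, 1 point per library. WT C57BL6 (triangles) is the highest and WT C57BL6-BALB/c (squares) the lowest for each of the 10 genes, and Ttr and Enpp2 lie far above the other 8.

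Ttr (ENSMUSG00000061808; GRCm38 chromosome 18, 20665280 to 20674321, plus strand) encodes transthyretin, the carrier of thyroxine and of retinol-binding protein that the epithelium secretes into the cerebrospinal fluid. It had 171327, 49004 and 157623 reads, with 0 of the 614 bases of its transcript uncovered in any library. As RPKM, its values were 5202, 3764 and 10105, which ranked 1, 2 and 1 among the 16604 genes tested. Ttr was therefore one of the most abundant transcripts of each vessel preparation. It was 2.68-fold (2.66 to 2.71) lower in WT C57BL6-BALB/c than in WT C57BL6 and 1.94-fold (1.93 to 1.956) lower in the Cx43-deleted library than in WT C57BL6. Between the libraries of the C57BL6-BALB/c background, it was 1.38-fold (1.37 to 1.40) higher with the deletion.

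Enpp2 (ENSMUSG00000022425; chromosome 15, 54838901 to 54952892, minus strand) encodes autotaxin, the secreted enzyme that makes lysophosphatidic acid. Its reads numbered 49088, 17401 and 43500, or 295, 264 and 552 RPKM. It was higher in the Cx43-deleted library than in WT C57BL6-BALB/c by 1.12-fold (1.10 to 1.13), the smallest fold of the 10 genes in that comparison. Ttr and Enpp2 together held 93.2%, 93.3% and 93.8% of the reads of the 10 genes. Oligodendrocytes also express Enpp2, and the 12 oligodendrocyte markers measured had median log2 ratios of −0.06 (Cx43-deleted over WT C57BL6-BALB/c), −0.27 (Cx43-deleted over WT C57BL6) and −0.36 (WT C57BL6-BALB/c over WT C57BL6), with summed levels of 13817, 14192 and 17689. Mbp, the myelin basic protein, was at 11585, 12015 and 15382, and Opalin, a myelin membrane protein, at 3.62, 6.84 and 11.6. The order of Enpp2 was held by 2 of the 12, Mag at 151, 117 and 155 and Mog at 43.0, 38.4 and 51.5, both proteins of myelin, and by 17.3% of all genes. Mal, another myelin protein, was at 418, 307 and 393. Their part in the Enpp2 values was not tested.

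Kl (ENSMUSG00000058488; chromosome 5, 150952607 to 150993817, plus strand) encodes klotho, a membrane and secreted protein that acts as a co-receptor of fibroblast growth factor 23. It had 5156, 1599 and 4636 reads, or 19.2, 15.03 and 36.4 RPKM. It was 1.27-fold (1.205 to 1.35) higher in the Cx43-deleted library than in WT C57BL6-BALB/c and 1.90-fold (1.82 to 1.98) lower than in WT C57BL6. Folr1 (ENSMUSG00000001827; chromosome 7, 101858331 to 101870788, minus strand) encodes folate receptor alpha, by which the epithelium passes folate into the cerebrospinal fluid. Its reads numbered 1461, 356 and 1151. Of the 10 genes it had the largest fold between the Cx43-deleted and WT C57BL6-BALB/c libraries, 1.62 (1.44 to 1.83). The tables list 16 transcripts of Folr1, which share reads, and the log2 ratio of these libraries ran from 0.12 to 0.78 over them.

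The water and ion transport genes are those by which the epithelium drives secretion. Aqp1 (ENSMUSG00000004655; chromosome 6, 55336432 to 55348555, plus strand), the water channel of the apical membrane, had 1388, 364 and 1226 reads, or 9.85, 6.53 and 18.4 RPKM. It was 2.81-fold (2.50 to 3.17) lower in WT C57BL6-BALB/c than in WT C57BL6, the largest fold of any of the 10 genes in the 3 comparisons. Red blood cells also express Aqp1. The 6 red blood cell genes measured had median log2 ratios of −0.30, −1.28 and −1.05 in the same 3 comparisons, so they lay lower in the Cx43-deleted library than in WT C57BL6-BALB/c, where Aqp1 lay 1.51-fold (1.34 to 1.70) higher. Hbb-bs, a beta globin, was at 231, 292.5 and 509, and Alas2, the enzyme that starts haem synthesis in erythroid cells, at 34.8, 43.0 and 84.9. The summed levels of the 6 were 287.5, 362.4 and 654, and their part in the Aqp1 values was not tested.

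Slc4a5 (ENSMUSG00000068323; chromosome 6, 83219828 to 83304945, plus strand) encodes the sodium bicarbonate cotransporter NBCe2. It was the lowest of the 10 genes by RPKM, at 5.12, 3.25 and 8.44, from 1384, 347 and 1081 reads. Of the 5039 bases of its most abundant transcript, 160, 740 and 286 had no read, so its coverage was thinnest in WT C57BL6-BALB/c. It was 1.58-fold (1.40 to 1.78) higher in the Cx43-deleted library than in WT C57BL6-BALB/c and 1.65-fold (1.52 to 1.79) lower than in WT C57BL6.

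Kcnj13 and Kcne2 belong to potassium channels. Kcnj13 (ENSMUSG00000079436; chromosome 1, 87386363 to 87394729, minus strand) encodes the inward rectifier Kir7.1 and had 1365, 417 and 1199 reads, or 20.9, 16.2 and 38.8 RPKM. It lies within Gigyf2 on the other strand, and 49.1% of its exon bases are also exon bases of Gigyf2 transcripts in GENCODE. The libraries do not keep the strand, so reads of both genes cannot be told apart there. Gigyf2 had levels of 133.9, 116.7 and 89.1, an order that differs from that of Kcnj13. Kcne2 (ENSMUSG00000039672; chromosome 16, 92292389 to 92298129, plus strand) encodes a small accessory subunit of potassium channels, found in the epithelium with KCNQ1. It had 1011, 343 and 911 reads and was 1.17-fold (1.03 to 1.32) higher in the Cx43-deleted library than in WT C57BL6-BALB/c, with a lower bound close to 1. Against WT C57BL6 it was 1.90-fold (1.74 to 2.08) lower in the Cx43-deleted library and 2.22-fold (1.956 to 2.52) lower in WT C57BL6-BALB/c.

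Clic6 (ENSMUSG00000022949; chromosome 16, 92485736 to 92541243, plus strand), of the chloride intracellular channel family, had 3293, 994 and 2267 reads. It was 1.31-fold (1.22 to 1.41) higher in the Cx43-deleted library than in WT C57BL6-BALB/c, and 1.90-fold (1.77 to 2.05) lower in WT C57BL6-BALB/c than in WT C57BL6. Otx2 (ENSMUSG00000021848; chromosome 14, 48657677 to 48673819, minus strand) is the homeodomain transcription factor that the epithelium needs for its formation and upkeep. Its reads numbered 1103, 378 and 715, or 9.002, 7.80 and 12.3 RPKM. Otx2 differed least from WT C57BL6 among the 10 genes, being 1.37-fold (1.24 to 1.51) lower in the Cx43-deleted library and 1.58-fold (1.39 to 1.79) lower in WT C57BL6-BALB/c.

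**Figure D2:**
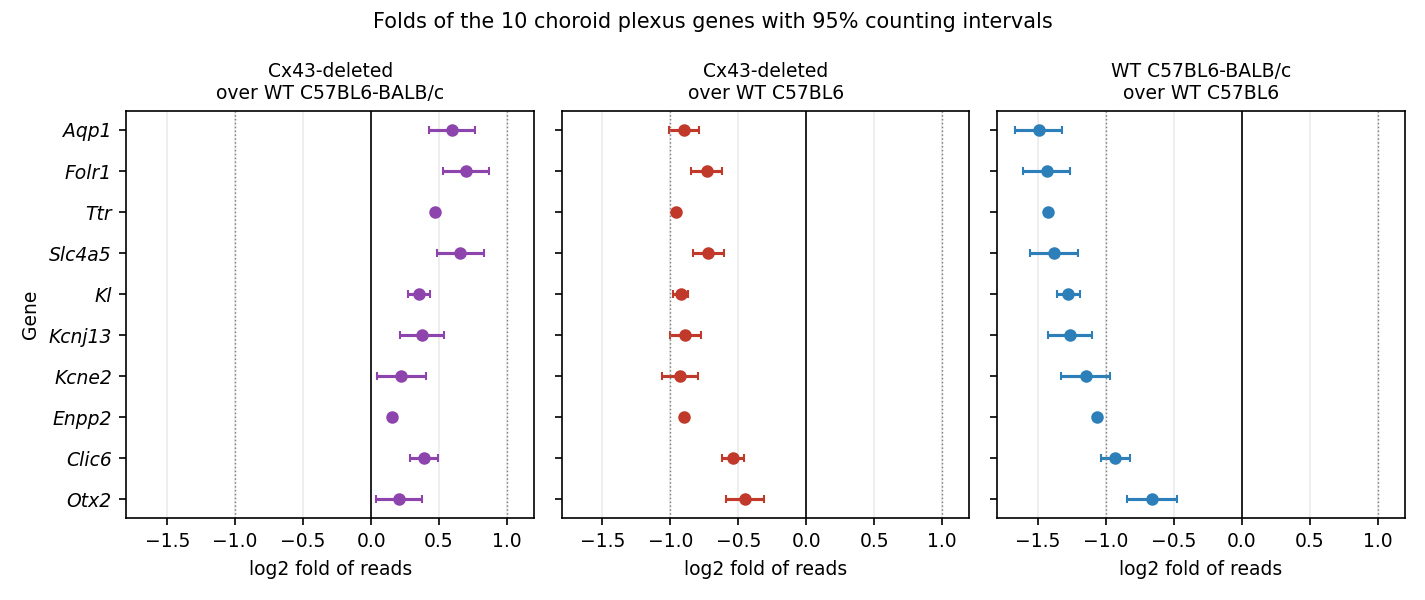
Log2 folds of the reads of the most abundant transcript of each gene in the 3 comparisons, with 95% counting intervals and dotted lines at 2-fold. All points lie above 0 for Cx43-deleted over WT C57BL6-BALB/c and below 0 in both comparisons with WT C57BL6, where Otx2 and Clic6 lie nearest to 0.

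As a group, the 10 genes had a median log2 ratio of 0.37 for Cx43-deleted over WT C57BL6-BALB/c, with a range of 0.16 to 0.69, against a median of 0.0030 over all genes tested. All 10 were higher, as were 50.5% of all genes, and 0 of 10 reached 2-fold, which 1.05% of all genes did in that direction. For Cx43-deleted over WT C57BL6 the median was −0.88 (−0.96 to −0.37), against −0.03 over all genes. All 10 were lower, as were 52.9% of all genes, and 0 of 10 were lower by 2-fold, against 2.91% of all genes. For WT C57BL6-BALB/c over WT C57BL6 the median was −1.26 (−1.46 to −0.63), against −0.03 over all genes. All 10 were lower, as were 53.3% of all genes, and 8 of 10 were lower by 2-fold or more, against 2.09% of all genes. Clic6 and Otx2 were the 2 that did not reach it, at −0.92 and −0.63. For all 10 genes the Cx43-deleted library lay between the WT libraries, so the comparison of the WT libraries had to give the largest median difference. The cause of these differences was not tested.

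Measured against Ttr in the same library, which needs no scaling between libraries, the genes did not all keep a constant proportion. Per 1000 Ttr reads there were 6.44, 7.71 and 4.54 reads of Otx2 and 19.2, 20.3 and 14.4 of Clic6. Otx2 per Ttr read was thus 1.42 times (1.29 to 1.56) its WT C57BL6 value in the Cx43-deleted library and 1.70 times (1.501 to 1.93) in WT C57BL6-BALB/c. For Clic6 these ratios were 1.34 (1.27 to 1.41) and 1.41 (1.31 to 1.52). Aqp1 per Ttr read had ratios of 1.04 (0.964 to 1.13) and 0.955 (0.849 to 1.07), intervals that include 1. Folr1 and Slc4a5 per Ttr read were 1.17 times (1.08 to 1.26) and 1.18 times (1.09 to 1.28) the WT C57BL6 value in the Cx43-deleted library, while in WT C57BL6-BALB/c their intervals included 1. Enpp2 per Ttr read stood at 1.04 (1.02 to 1.05) in the Cx43-deleted library and 1.29 (1.26 to 1.31) in WT C57BL6-BALB/c. For Cx43-deleted over WT C57BL6-BALB/c, reads per Ttr read were lower for Enpp2 (0.807, 0.791 to 0.823) and Otx2 (0.835, 0.742 to 0.938). They were also lower for Kcne2 (0.843, 0.746 to 0.953) and Kl (0.922, 0.871 to 0.976). They were higher for Folr1 (1.17, 1.045 to 1.32) and Slc4a5 (1.14, 1.01 to 1.28). The intervals of Clic6, Aqp1 and Kcnj13 included 1 there.

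**Figure D3:**
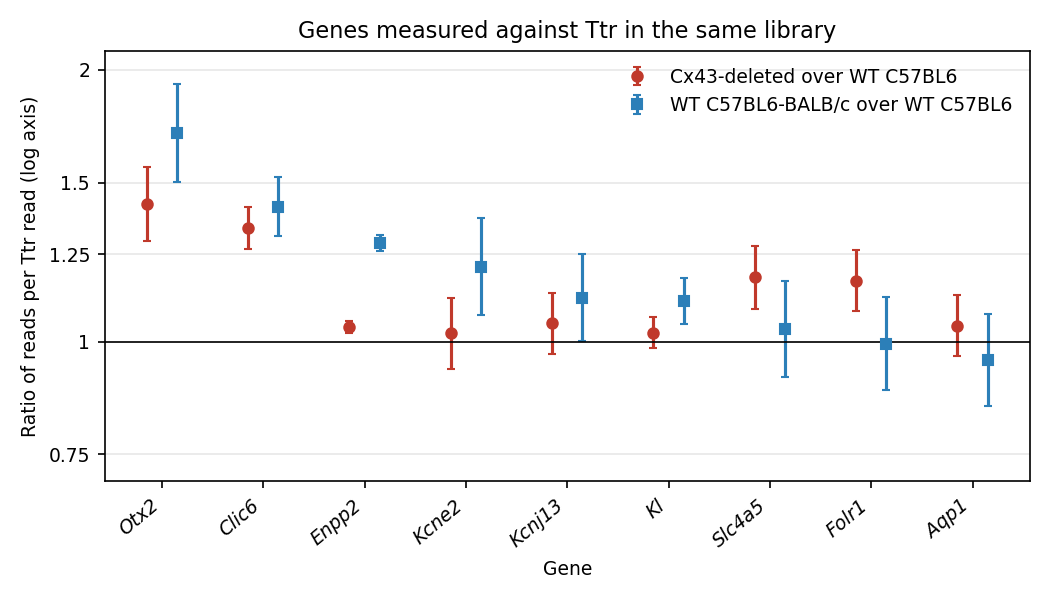
Reads of each gene per Ttr read, as a ratio of the Cx43-deleted library (circles) and of WT C57BL6-BALB/c (squares) to WT C57BL6, with 95% counting intervals on a log axis. The intervals of Otx2, Clic6 and Enpp2 lie above 1 in both libraries, and that of Aqp1 includes 1 in both.

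The promoters of Kl, Kcne2 and Kcnj13 are shown. Of the windows listed, these are the 3 whose start site is also the outermost start of the gene in GENCODE. Each stretch is the 250 bases before the start site in RefSeq on GRCm38.p6, on the strand of the gene: chr5:150952357-150952606 on the plus strand for Kl, chr16:92292139-92292388 on the plus strand for Kcne2, and chr1:87394730-87394979 on the minus strand for Kcnj13. The sequences are in lower case throughout because the motif searched for, in capitals where present, was found in none of them.
Kl: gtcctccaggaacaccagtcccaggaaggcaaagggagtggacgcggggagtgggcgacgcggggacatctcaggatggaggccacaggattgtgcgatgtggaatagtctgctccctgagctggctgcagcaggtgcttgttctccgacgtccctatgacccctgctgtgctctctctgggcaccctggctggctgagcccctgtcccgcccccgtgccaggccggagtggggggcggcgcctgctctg
Kcne2: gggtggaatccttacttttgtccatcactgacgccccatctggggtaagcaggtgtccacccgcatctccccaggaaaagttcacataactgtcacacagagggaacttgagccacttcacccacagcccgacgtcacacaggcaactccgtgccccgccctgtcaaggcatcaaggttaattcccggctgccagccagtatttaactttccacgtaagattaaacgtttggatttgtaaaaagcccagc
Kcnj13: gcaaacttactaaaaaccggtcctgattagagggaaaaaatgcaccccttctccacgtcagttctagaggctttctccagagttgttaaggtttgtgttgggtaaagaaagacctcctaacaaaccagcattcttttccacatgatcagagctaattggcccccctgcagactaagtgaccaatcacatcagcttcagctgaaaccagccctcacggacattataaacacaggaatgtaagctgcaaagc

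The motif was TAATCC, the core bound by Otx-type homeodomains, searched on both strands (GGATTA on the other). RefSeq promoters were listed for 6 of the 10 genes, Aqp1, Kcne2, Kcnj13, Kl, Otx2 and Slc4a5. They made 10 windows of 250 bases, with more than 1 window for Kcne2 and for Otx2. For the 10 genes, windows on chromosome 18, where Ttr lies, were left out, while the background of all windows kept that chromosome. The motif was found in 1 window, of Otx2 itself, 211 bases before the start site on the opposite strand. No GENCODE transcript of Otx2 used here starts at that site, and the Otx2 windows at which transcripts do start held no motif. Of all 32851 windows, 6.25% held the motif. The G and C content of the shown windows was 66.8% for Kl, 52.4% for Kcne2 and 45.2% for Kcnj13, so these promoters differ in base composition.

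Other genes known from the choroid plexus epithelium were counted in the same way. Of 40 listed, 38 were measured, with medians of 0.17 for Cx43-deleted over WT C57BL6-BALB/c, −0.65 for Cx43-deleted over WT C57BL6 and −0.72 for WT C57BL6-BALB/c over WT C57BL6. In the first comparison 25 were higher and 13 lower, where 50.5% of all genes were higher. The order of the 10 genes was held by 25 of the 38 and by 17.3% of all genes. In each of the other comparisons 37 were lower and 1, Gpr155, was higher, where 52.9% and 53.3% of all genes were lower. Stra6, the receptor for retinol-binding protein, was at levels of 165, 74.9 and 178. Of the 38, Stra6 alone was 2-fold or more higher in the Cx43-deleted library than in WT C57BL6-BALB/c, at a log2 ratio of 1.13. That was 1 of 38, against 1.05% of all genes.

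Of the 38, 8 were 2-fold or more lower in WT C57BL6-BALB/c than in WT C57BL6, against 2.09% of all genes. Tight junction and secreted genes of the epithelium were among these 8. Cldn2, a claudin of leaky epithelia, was at 31.2, 27.4 and 57.3, and Cldn1, a sealing claudin, at 13.3, 7.31 and 17.1. Sostdc1, a secreted antagonist of BMP and Wnt ligands, was at 16.3, 12.4 and 29.4, and Wfdc2, a secreted whey acidic protein domain protein, at 15.1, 11.2 and 25.8. Their order was that of the 10 genes. Others at 2-fold between the WT libraries included Steap1, with levels of 4.57, 3.30 and 15.1, and Rdh5, of retinol metabolism, with a log2 ratio of −1.09. Perp, a desmosomal protein, and Krt18, a keratin of simple epithelia, were instead lowest in the Cx43-deleted library, at 23.7, 39.6 and 55.4 and at 4.85, 6.04 and 10.4.

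The most abundant genes of that list are expressed by other brain cells too. Htr2c, the serotonin receptor 2C, was at 208.5, 184.9 and 295.8. Ace, angiotensin-converting enzyme, was at 367, 321 and 476.5. Trpm3, a cation channel, was at 363, 253 and 384, nearly equal in the Cx43-deleted and WT C57BL6 libraries. Trpv4, another cation channel, and Igfbp2, which binds insulin-like growth factors, were below WT C57BL6-BALB/c in the Cx43-deleted library, at log2 ratios of −0.12 and −0.09.

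Genes of fluid secretion that many cell types use were listed apart. The 25 measured had medians of 0.02, −0.26 and −0.29 in the same 3 comparisons, with 14 higher in the first and 16 and 15 lower in the others, against 50.5%, 52.9% and 53.3% of all genes in those directions. Of the 25, 0 differed by 2-fold in any comparison, in either direction. That count is near the background of 1.05%, 2.91% and 2.09% of all genes in the directions above. In the opposite directions 168, 256 and 195 of the 16604 genes differed by 2-fold. The order of the 10 genes was held by 8 of the 25, against 17.3% of all genes. Atp1b1 and Atp1b2, subunits of the sodium pump, were at log2 ratios of −0.20 and −0.17 for Cx43-deleted over WT C57BL6-BALB/c. Slc4a10, a sodium-dependent bicarbonate transporter also found in neurons, was at levels of 1027, 1008 and 903, Clcn2, a chloride channel, at 1363, 1157 and 755, and Wnk1, a kinase that controls chloride cotransport, at 1196, 1174 and 1131. These abundant genes were highest in the Cx43-deleted library or, for the pump subunits, in WT C57BL6.

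Partners of the folate, klotho, lysophosphatidic acid, thyroid hormone and retinol routes had the order of the 10 genes in 4 of 20 measured, near the 17.3% of all genes. Their medians were −0.13, −0.42 and −0.28. Fgfr1, the receptor with which klotho pairs, was at 816, 861 and 755.5, and Adam17, a protease that sheds klotho, at 376.5, 331 and 362. Lpar1, a lysophosphatidic acid receptor, was at 256, 286 and 284, while Lpar6, another such receptor, was at 18.2, 21.4 and 38.1. Thra, a thyroid hormone receptor, was at 568, 610.5 and 630. Slco1c1, the thyroxine carrier of the barrier endothelium, was at 545, 616 and 1121.

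Ependymal cells line the ventricles next to the choroid plexus, and their markers were followed beside it. Of 20 ependyma genes measured, 0 stood in the order of the 10 genes, which 17.3% of all genes had. Their medians were −0.50, −0.67 and −0.21 in the same 3 comparisons, and in the first of these 18 of 20 were lower and 2 higher, where 50.5% of all genes were higher. Foxj1, the master regulator of motile cilia, was at 64.7, 102 and 95.02, and Rarres2, chemerin, at 52.6, 75.9 and 102. Tekt1, a tektin of ciliary microtubules, was at 38.8, 53.9 and 60.4, Cfap126 at 61.0, 68.7 and 100.3, and Cfap44, also of cilia, went the other way at 141, 132 and 124. Against WT C57BL6, 16 of the 20 were lower in the Cx43-deleted library and 4 higher, where 52.9% of all genes were lower. Tmem212, Dynlrb2, Mia, Meig1, Sntn and Cfap52 were 2-fold or more lower in the Cx43-deleted library than in WT C57BL6. That was 6 of 20, against 2.91% of all genes. Mia was also 2-fold or more lower than in WT C57BL6-BALB/c, as were 168 of the 16604 genes.

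The medians of vessel and stroma markers were likewise lower in the 2 libraries of the C57BL6-BALB/c background than in WT C57BL6. The 12 endothelial markers had medians of −0.15, −0.99 and −0.70, so against WT C57BL6 they lay about as far down in the Cx43-deleted library as the 10 choroid plexus genes. In the first comparison 5 of the 12 were higher and 7 lower, where 50.5% of all genes were higher. The order of the 10 genes was held by 4 of the 12, Itm2a, Abcb1a, Esam and Ly6c1, against 17.3% of all genes. Their summed levels, 7894, 7427 and 11930, stood in that order only with Slc2a1 included. Tek and Kdr, receptors for angiopoietins and VEGF, were at 467, 676 and 1054 and at 129, 185 and 309. Itm2a, a membrane protein, was at 364, 354 and 769, and Cdh5, the cadherin of endothelial junctions, at 190, 244 and 392.3. Slc2a1, the glucose transporter, was the exception at 2828, 1653 and 2162, and without it the summed level was lowest in the Cx43-deleted library. Plvap, the diaphragm protein of fenestrated capillaries such as those of the choroid plexus, was at 26.8, 29.8 and 41.8. The list of 6 genes it belongs to had medians of −0.31, −0.83 and −0.45, with 0 of 6 in the order of the 10 genes, a count too small to set against the 17.3% of all genes. The 13 genes of leptomeninges and stroma had medians of −0.07, −0.30 and −0.15, with Ptgds, prostaglandin D synthase, at 17576, 14727 and 14238 and Lum, lumican, at 8.85, 16.3 and 21.1. The 10 astrocyte markers, Gja1 included, had medians of −0.13, −0.37 and −0.12, and Gfap, their intermediate filament, was at 265, 300 and 309. The part of these cell types in the choroid plexus values was not tested.

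**Figure D4:**
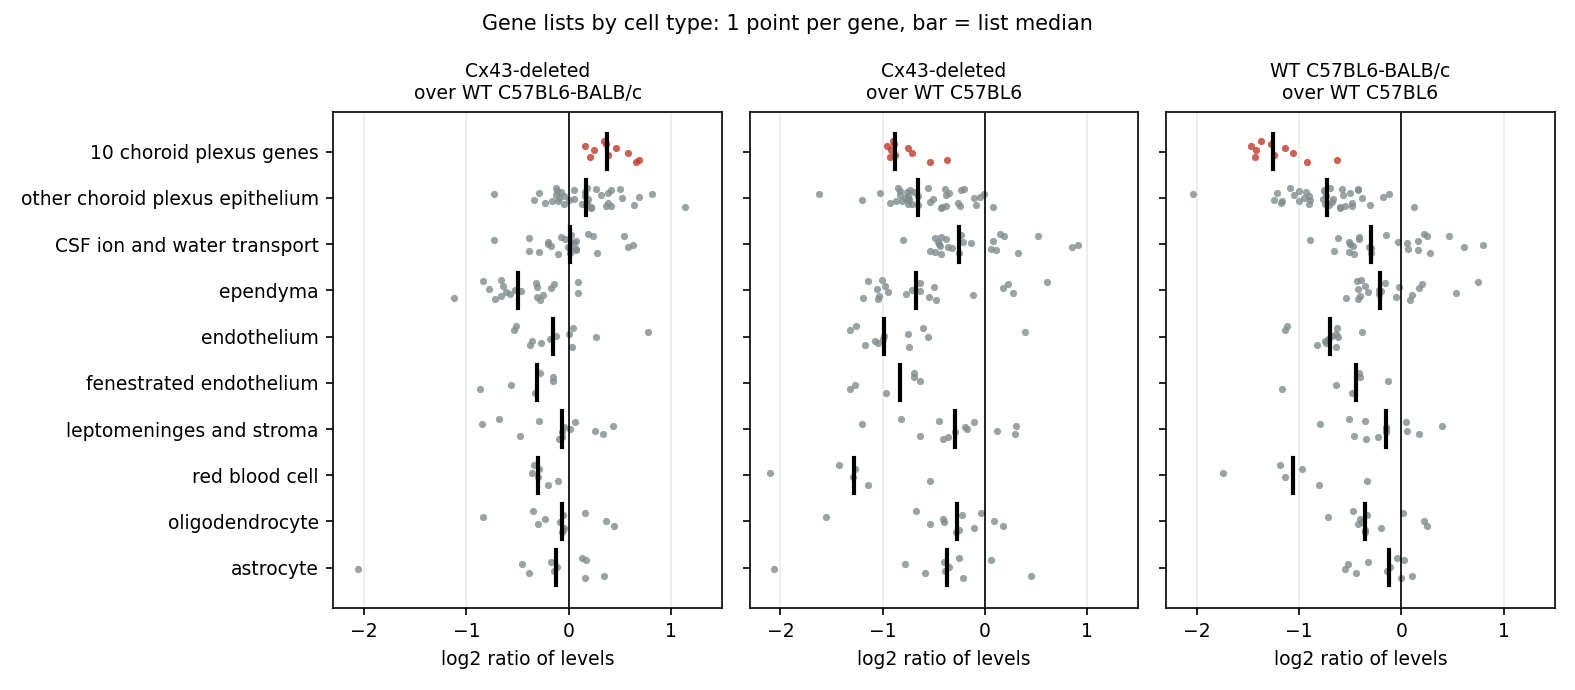
Log2 ratios of levels in the 3 comparisons for 10 gene lists, 1 point per gene measured, with a bar at the median of each list. The 10 choroid plexus genes have medians of 0.37, −0.88 and −1.26, the ependyma list −0.50, −0.67 and −0.21, and the endothelium list −0.15, −0.99 and −0.70.

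The WT C57BL6-BALB/c library, lowest for the 10 genes, also held pituitary transcripts. The 6 pituitary genes measured had a summed level of 192 there, 6.64 in the Cx43-deleted library and 11.1 in WT C57BL6. Gh, growth hormone, had 933 reads against 2 and 7, and Prl, prolactin, 684 against 1 and 0 (a count of 0 allows up to 3 reads), while Cga and Fshb, gonadotropin subunits, had levels of 59.5 and 6.60 against at most 0.876 and 0.0559 elsewhere. Otx2 is also known from the pineal gland and retina. Of the 8 genes listed for these, 3 were measured, among them Aanat at 19.6, 16.3 and 16.9 and Sag at 6.84, 6.70 and 7.44. Crx, which defines both tissues, was at 0.354, 0.424 and 0.197. The part of these tissues in the values of the 10 genes was not tested.

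The 5 genes nearest to the 10 in their pair of log2 ratios to WT C57BL6 were Spry1, Serpinb6b, Grrp1, Traf1 and Grap, among 9485 other genes whose level was at least 20 in each library. The distance to the medians of the 10 genes was 0.01 for Spry1 and 0.08 to 0.14 for the other 4, against a median of 0.20 and a largest value of 0.81 for the 10 genes themselves. Spry1 was at 73.9, 56.4 and 136, and Grrp1 at 48.3, 35.4 and 90.8. Of the 9485 genes, 9 (0.0949%) lay within the median distance of the 10 and 653 (6.88%) within the largest. This likeness rests on 3 libraries and on 2 ratios that share WT C57BL6.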

How the data were processed

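RNA from brain vessels was sequenced in 3 libraries, 1 per group, and grouped by their labels. The authors deposited a raw read count for each of 82813 transcripts, and that count again as a fraction of a total, per the file headers; count over fraction gave the library totals. A read was counted on each transcript it overlaps, since the counts sum to 2.55, 2.53 and 2.45 times the totals. Transcript length and bases with no read were also used. The kit in the labels' protocols is not stranded. The submitters' processing notes name CASAVA 1.8.2, Bowtie and mm10; no source used here names the counting program or the annotation. The deposited coordinates reach 197054592 on chromosome 1, past the last gene at 195323493 in GRCm38, so names and positions were taken from GENCODE M21 by transcript identifier: 69379 matched (83.8%), 217 on another chromosome were left out, and those used held 83.4%, 83.4% and 84.0% of the counts.

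Counts were summed by gene and divided by library total and TMM factor (0.976, 1.002 and 1.02; from edgeR 4.0.16, in R 4.3.3). Log2 ratios used a pseudocount of 0.5, which understates them at low levels. The filter kept genes at a level of at least 1 in any library. Intervals are exact binomial for folds and normal on the log scale for reads per Ttr read (scipy 1.17.1). The steps were tested on simulated counts. PCR copies are not marked, so intervals cover counting error only.

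The 10 genes and the lists were chosen with earlier results of these data known. The 10 genes, Gja1, in each list up to 5 genes of highest mean level and any at 2-fold or more in a comparison, genes sharing exon bases with the 10, and the 5 genes of nearest pattern could be named. Gpr155, Crx, Mag, Mog, Abcb1a, Esam and Ly6c1 were named after their values were seen. Some genes that the rule would name are not reported here. Alternatives were other scalings, pseudocounts and level filters, the most abundant transcript alone, and the group without Enpp2 and Aqp1.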

Additional observations from a re-analysis of the deposited data

How the results depend on the processing

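The direction of the log2 ratio of each of the 10 genes was kept in all 3 comparisons under both other scalings, both other pseudocounts and the most abundant transcript alone. Of 150 such values, 140 moved by less than the distance from the middle of their log2 counting interval to its end. The other 10 moved further and 0 reversed, with a largest shift of 0.07. Without the TMM factor, 1 of the 10 genes, Ttr at −1.03, was lower by 2-fold in Cx43-deleted over WT C57BL6, against 0. The medians of the 10 genes ran from 0.34 to 0.38 for Cx43-deleted over WT C57BL6-BALB/c, from −0.95 to −0.81 over WT C57BL6 and from −1.29 to −1.22 for WT C57BL6-BALB/c over WT C57BL6, where −0.81 was the value without Enpp2 and Aqp1.

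Counts of genes at 2-fold or more depended on how low levels were treated. For Cx43-deleted over WT C57BL6-BALB/c, 175 genes were higher, 98 with a pseudocount of 2 and 113 with a minimum level of 5, and 168 were lower, 91 with a pseudocount of 2. For Cx43-deleted over WT C57BL6, 256 were higher and 484 lower, against 148 and 293 with a pseudocount of 2. For WT C57BL6-BALB/c over WT C57BL6, 195 were higher, 298 with a pseudocount of 0.1, 95 with a pseudocount of 2 and 120 with a minimum level of 5, and 347 were lower, 199 with a pseudocount of 2. Fewer genes are tested at the higher minimum, and a larger pseudocount shrinks the ratios of low genes by construction.

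No paired analysis was possible because each group has 1 library. Depth limits the comparison of Cx43-deleted with WT C57BL6-BALB/c most for Kcne2 and Otx2, whose fold intervals start at 1.03. Spread between animals is not measured.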
